A study of Mus musculus with 8 samples.

Results

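The cytosolic heat shock chaperones described here are 10 genes chosen by name and family, with earlier results of these data known: Hsph1, Hspa8, Hspa4, Hspa1a, Hspa1b, Hsp90aa1, Hsp90ab1, Dnaja1, Dnajb1 and the heat shock transcription factor gene Hsf1. All 10 were found by symbol among the 23358 genes of the deposited count table, and all 10 passed the filter on low counts that left 14086 genes for testing. They were measured by RNA-seq in mouse hematopoietic stem cells, the bone marrow cells that give rise to all blood lineages, which were obtained by sorting for the Lin-Sca+Kit+CD48-CD150+ phenotype without culture. Of the 8 libraries, 3 were labelled Huwe1 knockout with Mx1-Cre, 2 Huwe1 knockout with Vav-Cre and 3 wild type (WT).

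Huwe1 encodes a HECT-type ubiquitin ligase. Mx1-Cre is driven by an interferon-responsive promoter and deletes upon induction, whereas Vav-Cre is active in blood cells throughout life. The labels give the cells as untreated, state no age and name no inducing agent for any group, and they do not say whether the WT animals carried a Cre transgene or floxed alleles. An effect of Cre or of an inducing agent therefore cannot be told apart from that of Huwe1 loss. The labels leave unsaid whether each library is a different animal, and p-values then cover only the scatter among these samples, which may be technical.

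Heat shock chaperones bind unfolded or newly made proteins and keep them from aggregating. HSP70 proteins work in a cycle of ATP hydrolysis that J-domain proteins (HSP40) start and that nucleotide exchange factors such as the HSP110 proteins reset, while HSP90 proteins act later, on signalling proteins that are close to their folded state. In stressed cells HSF1 forms trimers and binds heat shock elements, which are inverted repeats of GAA and TTC, in front of the inducible genes of this family. Stem cells of the blood make protein slowly and are known to depend on its quality control.

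The heat shock element is shown first because it is the sequence that the inducible members are known to share. The pattern GAANNTTC or TTCNNGAA, where N is any base, was searched in the 250 bases before each start site given by RefSeq (GRCm38.p6). Each pattern is its own reverse complement, so the search covers both strands. A match lay before a start site of 4 of the 6 members with a window (Hsph1, Hspa1a, Hspa1b and Dnaja1) and of neither Hspa4 nor Dnajb1. Over all genes, 14.5% of 27025 had a match before at least 1 start site, and 12.8% of the 32851 windows held one. The promoters of Hspa8, Hsp90aa1, Hsp90ab1 and Hsf1 were not analysed here. The stretches around the matches follow in the direction of transcription, with the match in capitals:
Hsph1, minus strand, chr5:149636337-149636419: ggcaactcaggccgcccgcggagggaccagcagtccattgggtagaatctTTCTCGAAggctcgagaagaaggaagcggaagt
Dnaja1, plus strand, chr4:40722294-40722381: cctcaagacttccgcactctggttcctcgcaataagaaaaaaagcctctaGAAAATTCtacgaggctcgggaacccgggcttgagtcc
Hspa1a, minus strand, chr17:34972223-34972310: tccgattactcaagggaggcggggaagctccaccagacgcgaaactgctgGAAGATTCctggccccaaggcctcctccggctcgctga
Counted from the first listed start site, the match began at position -33 for Hsph1, -124 for Dnaja1 and -104 for Hspa1a. The same stretch stands before Hspa1b, and over the 250 bases before the start sites Hspa1a and Hspa1b differed at 3. These matches describe the letters in the windows and are not measured binding sites.

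Sequence shared with other genes limits some of these counts. In the GENCODE M21 transcripts, 58.8% of the 50-base stretches of Hspa1a also occur in Hspa1b, and 62.3% of those of Hspa1b in Hspa1a. For Hspa8, 74.8% of such stretches occur in a transcript of another gene, most of them in Gm15459. For Hsp90aa1 the share was 58.5%, most of it in Gm12346, and for Dnaja1 28.8%. It was 4.49% for Hsp90ab1, 0.441% for Dnajb1 and 0 for Hsph1, Hspa4 and Hsf1. How reads with several matches were counted is not given in the sources used here, so the levels of Hspa8, Hsp90aa1, Hspa1a, Hspa1b and, in part, Dnaja1 are uncertain.

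Total counts ranged from 28689765 to 33202926 per library. Huwe1 itself had 399 to 444 CPM in Mx1-Cre, 445 and 490.2 CPM in Vav-Cre and 398 to 434 CPM in WT libraries (CPM, counts scaled to library size and between libraries by the TMM method). The table gives 1 count per gene and does not test the loss of single exons, so the knockout labels are unchecked and groups are called by their labels. The 12 stem cell marker genes were detected in every library, with a summed level of 3142 to 5904 CPM in Mx1-Cre, 4729 to 5106 CPM in Vav-Cre and 4778 to 5839 CPM in WT libraries. Among them Fgd5 and Cdkn1c fell with both lines averaged, and Fgd5 averaged 3 ± 1.2 CPM in Mx1-Cre and 16.2 ± 1.41 CPM in Vav-Cre, against 56.2 ± 5.33 CPM in WT libraries (adjusted p = 0.000562 with both lines averaged).

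In these stem cells 1 gene of the family passed the test. Hsph1, which encodes the stress-inducible HSP110 protein, fell with both lines averaged and in the Vav-Cre line alone. Its constitutive relative Hspa4 lay higher in both lines without passing the test. The core genes Hspa8, Hsp90aa1 and Hsp90ab1 stayed within 1.26-fold of WT in either line, and the inducible HSP70 genes Hspa1a and Hspa1b had at most 30 counts in any library. Of the 10 genes, 1 fell, 0 rose and 9 did not pass with both lines averaged (edgeR's quasi-likelihood test, adjusted p below 0.05), as DESeq2 and limma-voom also found. Of all tested genes 2.65% were called there, 2.1% lower and 0.547% higher. No member had all 5 knockout libraries above or below all WT libraries, whereas 4.41% of tested genes lay above and 7.28% below. The median log2 fold change was 0.04 over the 10 genes and 0 over all tested genes.

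**Figure D1:**
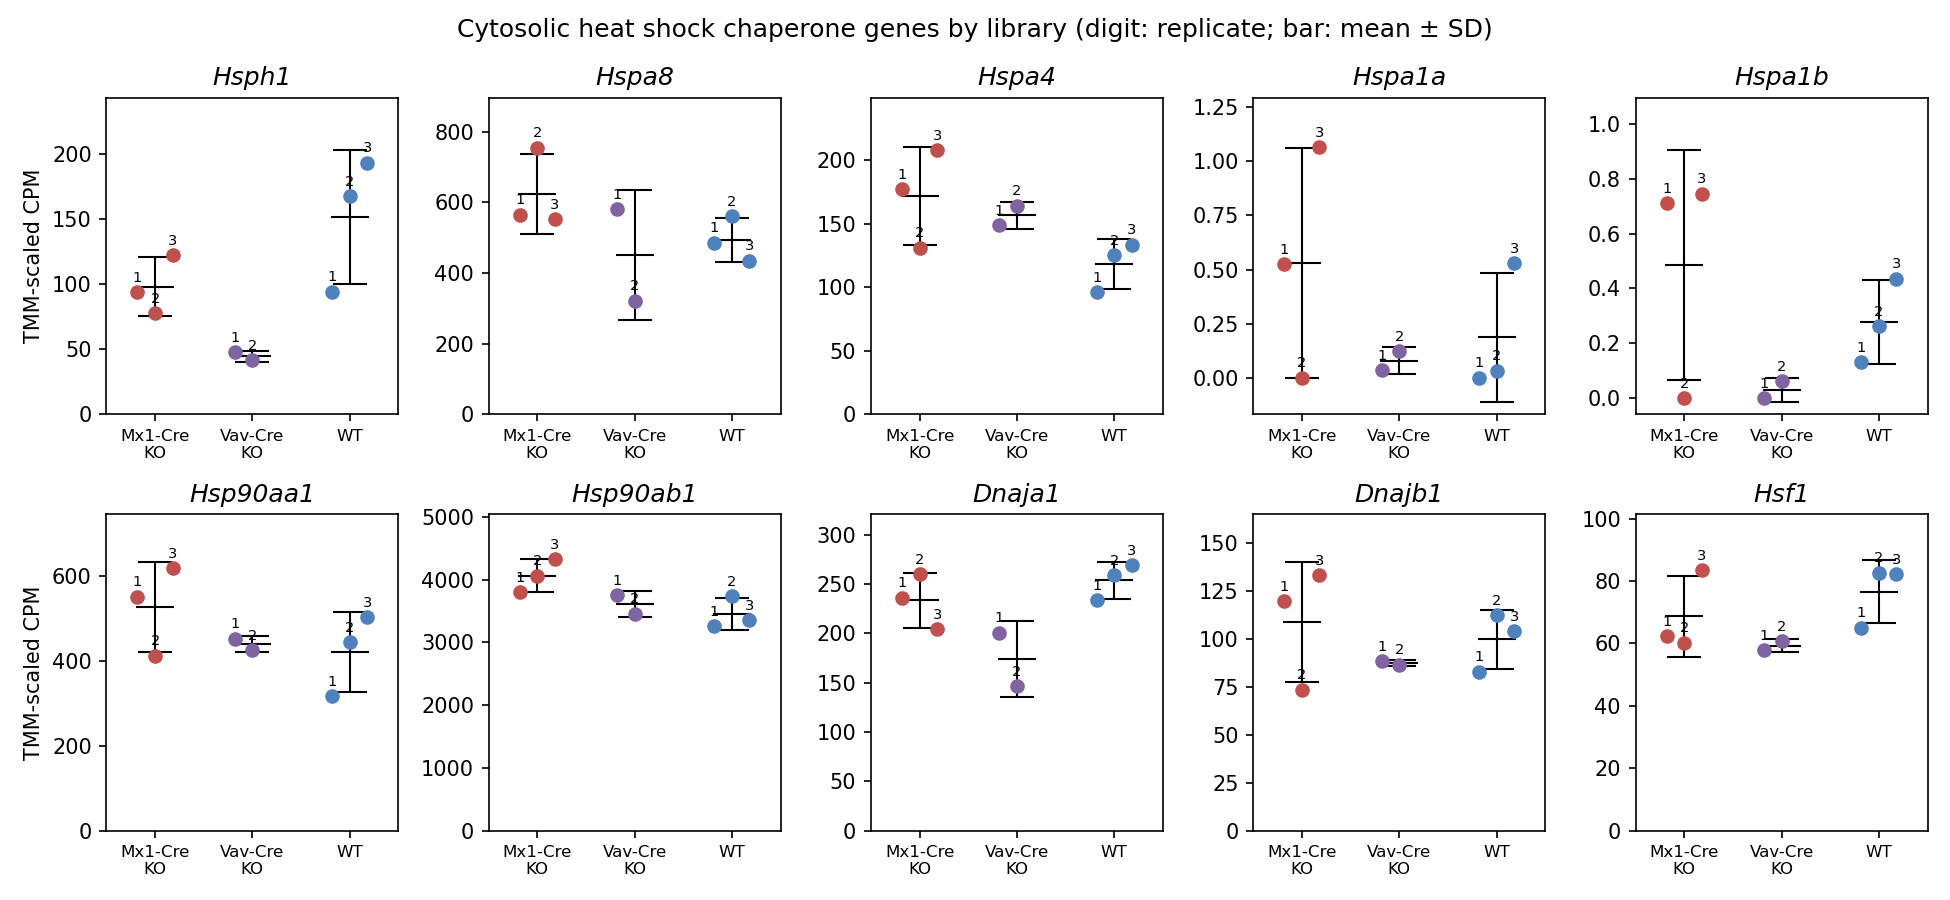
Level of each member in each library (TMM-scaled CPM, linear axes) in Mx1-Cre knockout, Vav-Cre knockout and WT libraries. Points are libraries with their replicate number, and bars give the mean ± SD. Both Vav-Cre libraries lie lowest for Hsph1, at 47.6 and 41.6 CPM, and Hspa1a and Hspa1b stay at or below 1.06 CPM.

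Per kilobase of the longest principal transcript in GENCODE M21, the family spans several orders of magnitude. In WT libraries Hsp90ab1, the constitutive HSP90 gene, averaged 1369 ± 100.4 CPM per kb (SD, n = 3). The constitutive HSP70 gene Hspa8 followed at 206 ± 26.4 and the inducible HSP90 gene Hsp90aa1 at 128 ± 29 CPM per kb. Next came Dnaja1 (45.1 ± 3.27), Hsph1 (39.9 ± 13.5), Hsf1 (36.8 ± 4.81), Dnajb1 (33.3 ± 5.11) and Hspa4 (25.6 ± 4.23 CPM per kb). The step from each of Dnaja1, Hsph1 and Hsf1 to the next was smaller than the SD of at least 1 of the neighbours. Hspa1a and Hspa1b were at 0.0631 ± 0.0999 and 0.0987 ± 0.0543 CPM per kb. Hsph1, the fifth in that order in WT libraries, was the eighth in Mx1-Cre libraries (25.8 ± 5.93 CPM per kb, n = 3) and in Vav-Cre libraries (11.7 ± 1.13 CPM per kb, n = 2). Hspa4, the eighth in WT libraries, was the fifth in Mx1-Cre libraries (37.2 ± 8.35 CPM per kb) and the fourth in Vav-Cre libraries (33.9 ± 2.34 CPM per kb). In Mx1-Cre libraries it stood between Dnaja1 (41.6 ± 5) and Dnajb1 (36.4 ± 10.5 CPM per kb). In Vav-Cre libraries the next gene was Dnaja1 (30.9 ± 6.84 CPM per kb). Each of these steps was again smaller than the SD of at least 1 of the neighbours. The first 3 places were the same in each group. Lengths come from an annotation of GRCm38, whereas the counts were made on mm9, and the levels of genes with shared sequence remain uncertain.

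The HSP110 proteins exchange nucleotide on HSP70 and can hold unfolded proteins themselves. Hsph1 had 93.9, 77.7 and 122 CPM in the Mx1-Cre libraries and 47.6 and 41.6 CPM in the Vav-Cre libraries, against 94.2, 168 and 193 CPM in the WT libraries. Both Vav-Cre libraries lay below every other library. The Mx1-Cre libraries overlapped WT, since Mx1-Cre 3 was higher than WT 1 and Mx1-Cre 1 lay close to it. With both lines averaged Hsph1 fell (log2 fold change -1.20 ± 0.22 SE, adjusted p = 0.0229). In the Vav-Cre libraries it fell by 1.77 ± 0.30 on the log2 scale (0.294 of the WT level, adjusted p = 0.0376). There the 95% interval was -2.43 to -1.10, and 0.511% of tested genes were called. In the Mx1-Cre libraries it had -0.63 ± 0.25 (95% interval -1.19 to -0.07, adjusted p = 0.237).

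Set directly against each other, the lines differed in Hsph1 by -1.13 ± 0.29 (Vav-Cre minus Mx1-Cre, adjusted p = 0.169). That difference did not pass in edgeR, while DESeq2 called it (adjusted p = 0.00554). The fall with both lines averaged no longer passed without WT 2 (adjusted p = 0.131), WT 3 (0.123), Mx1-Cre 1 (0.0549) or Vav-Cre 2 (0.0594), its size staying between -1.45 and -0.99 whichever library was left out. Of the Vav-Cre comparison the same is true without WT 2, WT 3, Mx1-Cre 1, Vav-Cre 1 or Vav-Cre 2 (adjusted p 0.0625 to 0.169), with a size of -2.02 to -1.55.

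Hspa4, the other HSP110 gene of the family, had 177, 131 and 208 CPM in the Mx1-Cre libraries and 149 and 164 CPM in the Vav-Cre libraries, against 96, 125 and 133 CPM in the WT libraries. Both Vav-Cre libraries and 2 of the 3 Mx1-Cre libraries were above all WT libraries, and Mx1-Cre 2 lay just below WT 3. Its log2 fold change was 0.54 ± 0.18 in Mx1-Cre (95% interval 0.13 to 0.95, adjusted p = 0.166) and 0.41 ± 0.20 in Vav-Cre libraries (-0.05 to 0.86, adjusted p = 0.423). Neither passed. The related Hspa4l, an HSP110 gene best known from testis, averaged 71.9 ± 1.78 CPM in Mx1-Cre and 56.7 ± 5.07 CPM in Vav-Cre, against 77.2 ± 7.11 CPM in WT libraries, and did not pass either (-0.27 ± 0.12 with both lines averaged, adjusted p = 0.271).

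**Figure D2:**
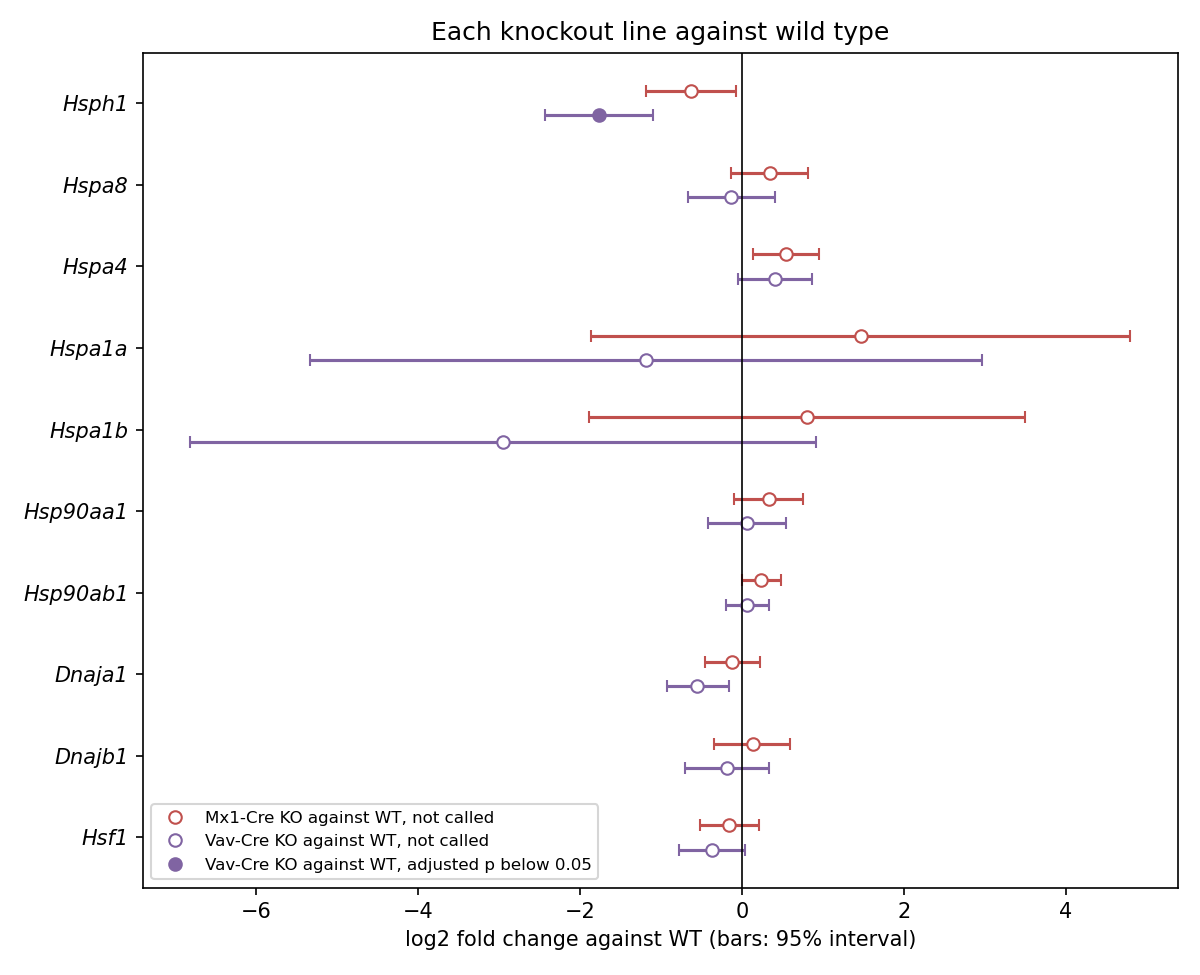
Log2 fold change of each member against WT in the Mx1-Cre (upper mark) and Vav-Cre (lower mark) libraries with 95% intervals from edgeR. Filled marks have an adjusted p below 0.05, which among these genes is Hsph1 in the Vav-Cre line, at -1.77.

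A ratio of 2 genes within a library does not depend on how libraries are scaled to each other. Hsph1 counts came to 53, 59.2 and 58.8% of Hspa4 counts in the Mx1-Cre libraries and to 32 and 25.3% in the Vav-Cre libraries, against 98.1, 134 and 145% in the WT libraries. All 5 knockout libraries were below all WT libraries, and both Vav-Cre libraries were below all Mx1-Cre libraries. The mean log2 ratio was -1.21 ± 0.56 in knockout libraries (SD, n = 5) and 0.31 ± 0.30 in WT libraries (SD, n = 3), a difference of -1.52. A two-sided exact permutation test gave p = 0.0357, the smallest value that 5 against 3 libraries allow, and 0.143 after adjustment over the 4 ratios compared. That did not pass. At the smallest possible p, 1 ratio could pass only if other ratios also had low values, so the adjusted value does not measure the size of the difference.

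The other 3 ratios of an inducible gene to a relative overlapped between the groups. Of these relatives, Dnaja1 had a match to the heat shock element before a start site, and whether it is constitutive here was not tested. Hsp90aa1 counts were 14.5, 10.1 and 14.3% of Hsp90ab1 counts in Mx1-Cre libraries, 12 and 12.3% in Vav-Cre, against 9.72, 11.9 and 15% in WT libraries (exact permutation p = 0.679). Dnajb1 counts were 50.8, 28.3 and 65.3% of Dnaja1 counts in Mx1-Cre, 44 and 59.1% in Vav-Cre, against 35.5, 43.5 and 38.6% in WT libraries (exact permutation p = 0.357). Hspa1a and Hspa1b together reached at most 0.328% of Hspa8 counts in any library. That was in Mx1-Cre 3, and the share was 0 in Mx1-Cre 2 (exact permutation p = 0.75, with 0.5 added to each count).

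**Figure D3:**
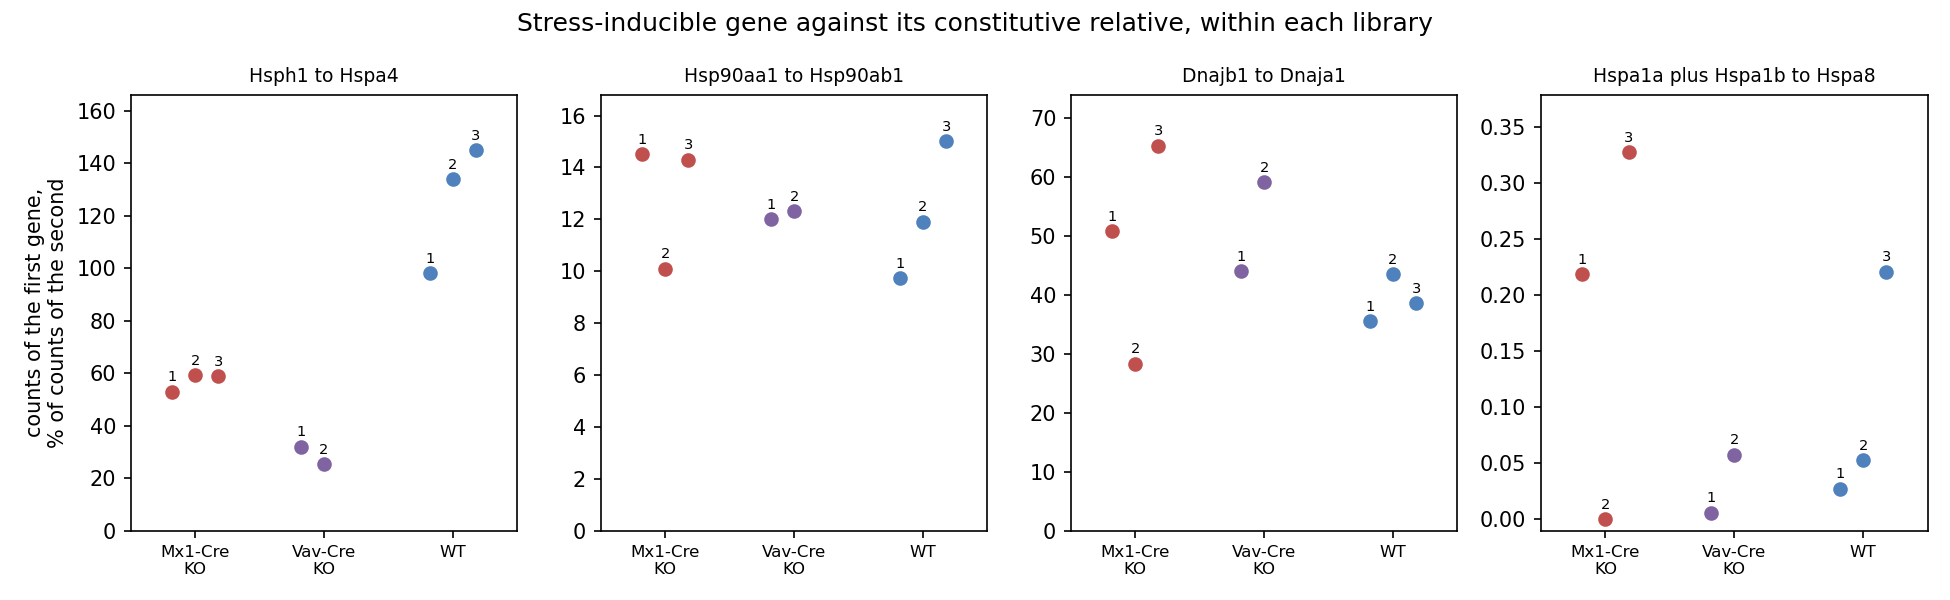
Counts of a gene or gene pair as a percentage of the counts of a relative in the 4 ratios compared, 1 point per library with its replicate number. For Hsph1 to Hspa4 the knockout libraries lie at 25.3 to 59.2% and the WT libraries at 98.1 to 145%, whereas the other panels overlap.

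The HSP70 genes did not pass in any comparison. Hspa8 had 565, 755 and 552 CPM in the Mx1-Cre libraries and 581 and 322 CPM in the Vav-Cre libraries, against 486, 561 and 435 CPM in the WT libraries. Vav-Cre 2 was the lowest of the 8 and Mx1-Cre 2 the highest, so the groups overlapped. The fold changes were 0.34 ± 0.22 in Mx1-Cre (adjusted p = 0.489) and -0.13 ± 0.24 in Vav-Cre libraries (adjusted p = 0.881). Hspa1a, which encodes inducible HSP70, had 17, 0 and 30 counts in the Mx1-Cre libraries and 1 and 4 counts in the Vav-Cre libraries, against 0, 1 and 17 counts in the WT libraries. Hspa1b, its near-identical neighbour, had 23, 0 and 21 counts in Mx1-Cre libraries, 0 and 2 counts in Vav-Cre, against 4, 8 and 14 counts in WT libraries. A count of 0 allows up to 0.109 CPM in Mx1-Cre 2, 0.105 CPM in Vav-Cre 1 and 0.099 CPM in WT 1, for counting error only. Summed to 1 gene, the pair had a log2 fold change of 1.12 ± 1.26 in the Mx1-Cre line and -2.01 ± 1.61 in the Vav-Cre line (adjusted p = 0.724 and 0.653). With these few counts and their scatter among libraries of a group, no change of less than several-fold was detectable.

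Of the HSP90 genes, Hsp90ab1 was the most abundant member per length in every group. It had 3803, 4065 and 4329 CPM in the Mx1-Cre libraries and 3755 and 3459 CPM in the Vav-Cre libraries, against 3258, 3736 and 3355 CPM in the WT libraries. All Mx1-Cre libraries lay above all WT libraries, as in 10.9% of tested genes, whereas Vav-Cre 2 lay among the WT libraries. The log2 fold change in Mx1-Cre libraries was 0.24 ± 0.11 (adjusted p = 0.306). Hsp90aa1 spanned 412 to 619 CPM in Mx1-Cre and 426 to 452 CPM in Vav-Cre, against 317 to 503 CPM in WT libraries, with fold changes of 0.33 ± 0.19 and 0.06 ± 0.22 (adjusted p = 0.447 and 0.944).

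The J-domain genes, whose proteins bring clients to HSP70, did not pass in any comparison. Dnaja1 had 236, 260.3 and 204 CPM in the Mx1-Cre libraries and 201 and 147 CPM in the Vav-Cre libraries, against 233, 259 and 269 CPM in the WT libraries. Both Vav-Cre libraries were below all others, with -0.55 ± 0.17 against WT (95% interval -0.93 to -0.16, adjusted p = 0.203). Dnajb1, a J-domain gene that HSF1 induces under stress, spanned 73.6 to 133 CPM in Mx1-Cre and 86.6 to 88.4 CPM in Vav-Cre, against 82.9 to 113 CPM in WT libraries, and its groups overlapped.

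Hsf1 had 62.2, 60.2 and 83.4 CPM in the Mx1-Cre libraries and 57.9 and 60.7 CPM in the Vav-Cre libraries, against 65, 82.6 and 82.2 CPM in the WT libraries. Both Vav-Cre libraries lay below all WT libraries, while Mx1-Cre 3 was the highest of the 8 and Mx1-Cre 1 and 2 lay below WT 1. The fold changes were -0.16 ± 0.16 and -0.37 ± 0.19 (adjusted p = 0.7 and 0.424). HSF1 is controlled mainly at the protein level, which was not measured.

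By line, the counts of members read as follows. In the Mx1-Cre libraries edgeR called 0 of 10, against 2.49% of all tested genes. An unadjusted p below 0.05 was reached by 2 members, Hspa4 with a positive and Hsph1 with a negative fold, and by 16.6% of all tested genes. DESeq2 called 0 there, and limma-voom with quality weights called both of these. In the Vav-Cre libraries 1 member was called lower, against 0.319% of all tested genes. There 4 members (Hsph1, Hspa1b, Dnaja1 and Hsf1) lay below WT without overlap, as did 17.1% of tested genes. Hspa4 lay above WT without overlap, as did 15.6%. The median fold change over the members was 0.28 in the Mx1-Cre line and -0.28 in the Vav-Cre line, beside 0.01 and -0.01 over all tested genes. Both lines share the WT libraries, so their folds are not independent. In the direct comparison of Vav-Cre with Mx1-Cre, edgeR called 0 members against 0.17% of all tested genes. An unadjusted p below 0.05 was reached by 2 members (Hsph1 and Dnaja1) and by 13.3% of tested genes, and DESeq2 called 1 (Hsph1) and limma-voom 0. All 10 members had a negative fold there, with a median of -0.37, while 50.6% of tested genes had a positive one. Most folds were negative in other lists of this comparison too, with 10 of 10 organelle chaperones (median -0.29), 12 of 13 CCT and prefoldin genes (median -0.26), 18 of 22 cochaperones (median -0.17) and 12 of 12 cycling genes (median -0.63). In each of these lists Vav-Cre 2 had the lowest sum of all libraries. In the same order it had 1839.9, 3974, 2542 and 1853 CPM, against 2403, 4933, 3005 and 3489 CPM in Vav-Cre 1. The 2 Vav-Cre libraries thus differed from each other in these lists. The part of the cycling genes' difference in the members' levels was not tested. The Vav-Cre libraries lay below the Mx1-Cre libraries without overlap for Hsph1, Hsp90ab1 and Dnaja1, as in 12% of tested genes.

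Libraries of the same group differed from each other in these genes. WT 1 was the lowest WT library for 9 of 10 members, and Mx1-Cre 2 the lowest Mx1-Cre library for 7 of 10. For Hsph1 the deviation from the group mean was -0.31 log2 CPM in Mx1-Cre 2 and -0.62 in WT 1. The deviations were -0.34 in Mx1-Cre 2 and -0.38 in WT 1 for Hsp90aa1, -0.52 and -0.26 for Dnajb1, and -0.37 and -0.28 for Hspa4. Hspa8, Hsp90ab1 and Dnaja1 were not among the 7 genes lowest in both. Without these 2 libraries, a choice made after the values were seen, Hsph1 had -1.38 with both lines averaged (adjusted p = 0.00728) and -2.02 in the Vav-Cre libraries (adjusted p = 0.00991). Both were left out for their low member levels, that of Hsph1 among them, so these values were shaped by the choice and support nothing. Leaving out WT 1 alone gave Hsph1 -1.45 averaged and -2.02 in Vav-Cre, and leaving out Mx1-Cre 2 alone gave -1.11 and -1.76. The larger falls thus came with WT 1 left out. The summed level of 24 immediate early genes, a class that can rise when cells are handled, was 1497 CPM in Mx1-Cre 2 and 1587 CPM in WT 1. These were the highest of the libraries of each of these groups. The sum was 1094 CPM in Vav-Cre 1 and 1776 CPM in Vav-Cre 2, the lowest and the highest of all libraries. Myc alone made up 670.3 to 821 CPM in Mx1-Cre and 546 to 746 CPM in WT libraries. The sum is therefore weighted to Myc and is no direct measure of handling. The part of handling in the spread within groups was not tested. Of these genes 1 fell with both lines averaged, Klf4 (-1.60 ± 0.33, adjusted p = 0.0339).

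**Figure D4:**
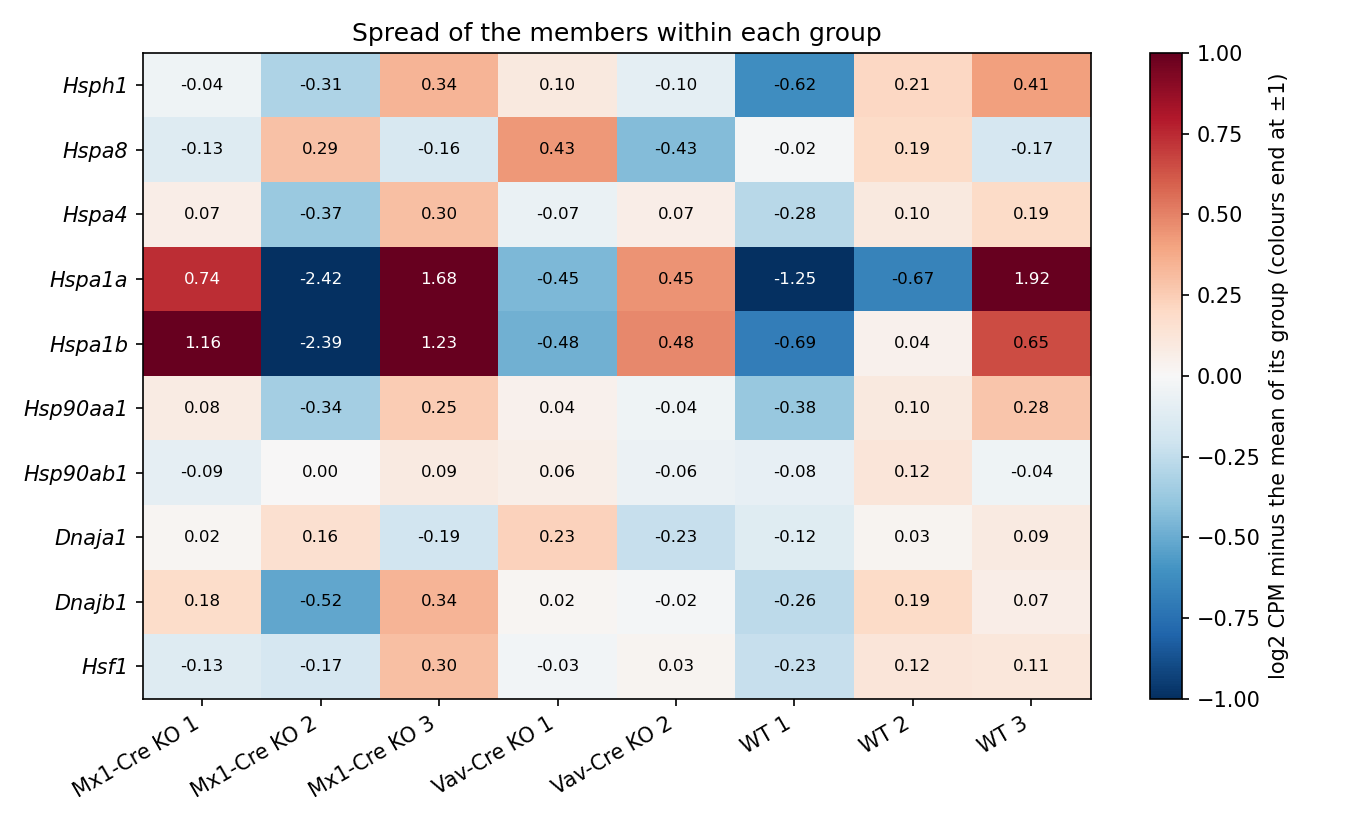
Deviation of each member in each library from the mean of its group (log2 CPM, rows are members, columns are libraries). WT 1 lies below its group mean in all 10 rows and Mx1-Cre 2 in 7 of 10, and the colours end before the value of -2.42 for the low-count Hspa1a.

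Other chaperone groups were described from lists chosen together with the members. Of 22 cochaperones of HSP70 and HSP90, 1 fell, 0 rose and 21 did not pass with both lines averaged (median log2 fold change -0.14). The gene that fell was Bag2, which encodes a nucleotide exchange factor of HSP70 that inhibits the ubiquitin ligase CHIP. It had 24.9, 26.9 and 35.1 CPM in the Mx1-Cre libraries and 25.2 and 26.9 CPM in the Vav-Cre libraries, against 55.6, 60.5 and 59.7 CPM in the WT libraries. All 5 knockout libraries lay below all WT libraries, as in 7.28% of tested genes. The log2 fold change was -1.02 ± 0.17 in the Mx1-Cre line and -1.17 ± 0.19 in the Vav-Cre line (adjusted p = 0.0135 and 0.0376), and the lines differed by -0.15 (adjusted p = 0.787). With both lines averaged (-1.09 ± 0.15, adjusted p = 0.00881) the call was lost without WT 2 or WT 3 (adjusted p = 0.0645 and 0.0552). In the Mx1-Cre libraries it was lost without WT 2, WT 3 or Mx1-Cre 1 (0.0672 to 0.0816). In the Vav-Cre libraries it was lost without any 1 of the WT or Vav-Cre libraries or Mx1-Cre 1 (0.0514 to 0.169). The HSF1 target Bag3, another exchange factor of the same family, averaged 23.9 ± 2.55 CPM in Mx1-Cre and 23.6 ± 6.18 CPM in Vav-Cre, against 20.2 ± 2.26 CPM in WT libraries (0.23 ± 0.18, adjusted p = 0.598). Bag3, Hspa4l, Stip1 and Hsf2 are named outside the rule and were picked with their values in view.

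Of 9 small heat shock protein genes, 4 were tested. Hspb8, whose protein works with BAG3 in the removal of misfolded proteins, had 0.834, 0.472 and 0.674 CPM in the Mx1-Cre libraries and 1.79 and 1.83 CPM in the Vav-Cre libraries, against 3.47, 4.13 and 3.67 CPM in the WT libraries. All 5 knockout libraries lay below all WT libraries, as in 7.28% of tested genes. Both Vav-Cre libraries lay above all Mx1-Cre libraries, as in 1940 of 14086 tested genes. It fell with both lines averaged (-1.78 ± 0.35, adjusted p = 0.0281) and in the Mx1-Cre libraries (-2.50 ± 0.42, adjusted p = 0.0152), and had -1.05 ± 0.45 in the Vav-Cre libraries (adjusted p = 0.342). Its counts were low, 13 to 126 per library. The call with both lines averaged was lost without WT 1, WT 2, WT 3, Vav-Cre 1 or Vav-Cre 2 (adjusted p 0.054 to 0.161). The call in the Mx1-Cre libraries was lost without WT 1, WT 2, WT 3 or Mx1-Cre 1 (0.0508 to 0.0915). With WT 1 and Mx1-Cre 2 both left out, Hspb8 lost both calls (adjusted p = 0.0945 averaged and 0.0872 in Mx1-Cre). Bag2 then kept its call with both lines averaged (0.0293) and lost it in the Mx1-Cre (0.0686) and Vav-Cre libraries (0.0674).

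In the remaining chaperone lists edgeR called 0 genes with both lines averaged and 0 in either line alone. With both lines averaged, 4 of 14 other cytosolic HSP70, HSP110 and HSP40 genes had an unadjusted p below 0.05, against 16.5% of all tested genes in this comparison, and DESeq2 and limma-voom called 0. Among them the J-domain gene Dnajb2 averaged 5.11 ± 1.97 CPM in Mx1-Cre and 5.97 ± 1.51 CPM in Vav-Cre, against 9.83 ± 1.74 CPM in WT libraries (-0.83 ± 0.29, adjusted p = 0.189). Hspa1l, an HSP70 gene next to Hspa1a, averaged 6.83 ± 3.25 CPM in Mx1-Cre and 8.17 ± 0.362 CPM in Vav-Cre, against 4.25 ± 0.499 CPM in WT libraries (0.81 ± 0.34, adjusted p = 0.269). Of 13 tested genes of the CCT chaperonin and prefoldin, which fold actin and tubulin, 0 had such a p and 0 were called by the other tools (Cct7 -0.19 ± 0.11 and Cct2 0.18 ± 0.14). Of 7 tested heat shock factors and regulators 1 had such a p, Ep300, which encodes an acetyltransferase of HSF1 (0.39 ± 0.15, adjusted p = 0.218), and 0 were called by the other tools. Hsf5 had -1.26 ± 0.74 (adjusted p = 0.457). Of 10 organelle chaperones 2 had such a p, Hyou1 and Hspa5, of which DESeq2 called Hyou1 and limma-voom Hspa5. In the Vav-Cre libraries DESeq2 called Hspa5 and Hspd1, and in the Mx1-Cre libraries it called Dnaja4 and limma-voom called Dnaja4 and Dnajc5. The organelle chaperones had negative folds for 10 of 10 genes in the Vav-Cre libraries (median -0.34) and for 6 of 10 in the Mx1-Cre libraries (median -0.06). Among them Hspa5, the HSP70 of the endoplasmic reticulum, averaged 943 ± 199 CPM in Mx1-Cre and 601 ± 153 CPM in Vav-Cre, against 1024 ± 128 CPM in WT libraries (-0.12 ± 0.19 and -0.77 ± 0.22, adjusted p = 0.815 and 0.152). Hyou1, the HSP110 relative of that compartment, averaged 65.9 ± 13.1 CPM in Mx1-Cre and 56.9 ± 5.31 CPM in Vav-Cre, against 87.9 ± 11.2 CPM in WT libraries (-0.42 ± 0.17 and -0.63 ± 0.20, adjusted p = 0.257 and 0.198). Stip1, which links HSP70 to HSP90, averaged 361 ± 14.8 CPM in Mx1-Cre and 250.3 ± 49.1 CPM in Vav-Cre, against 343 ± 6.61 CPM in WT libraries, with 0.07 ± 0.13 in the Mx1-Cre line and -0.45 ± 0.15 in the Vav-Cre line (adjusted p = 0.832 and 0.209). Between the lines, Vav-Cre minus Mx1-Cre, Stip1 had -0.53 ± 0.15 (adjusted p = 0.187), and DESeq2 called Stip1 and Hspd1 lower there. Hsf2, the second heat shock factor gene, had 0.14 ± 0.18 (adjusted p = 0.776).

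**Figure D5:**
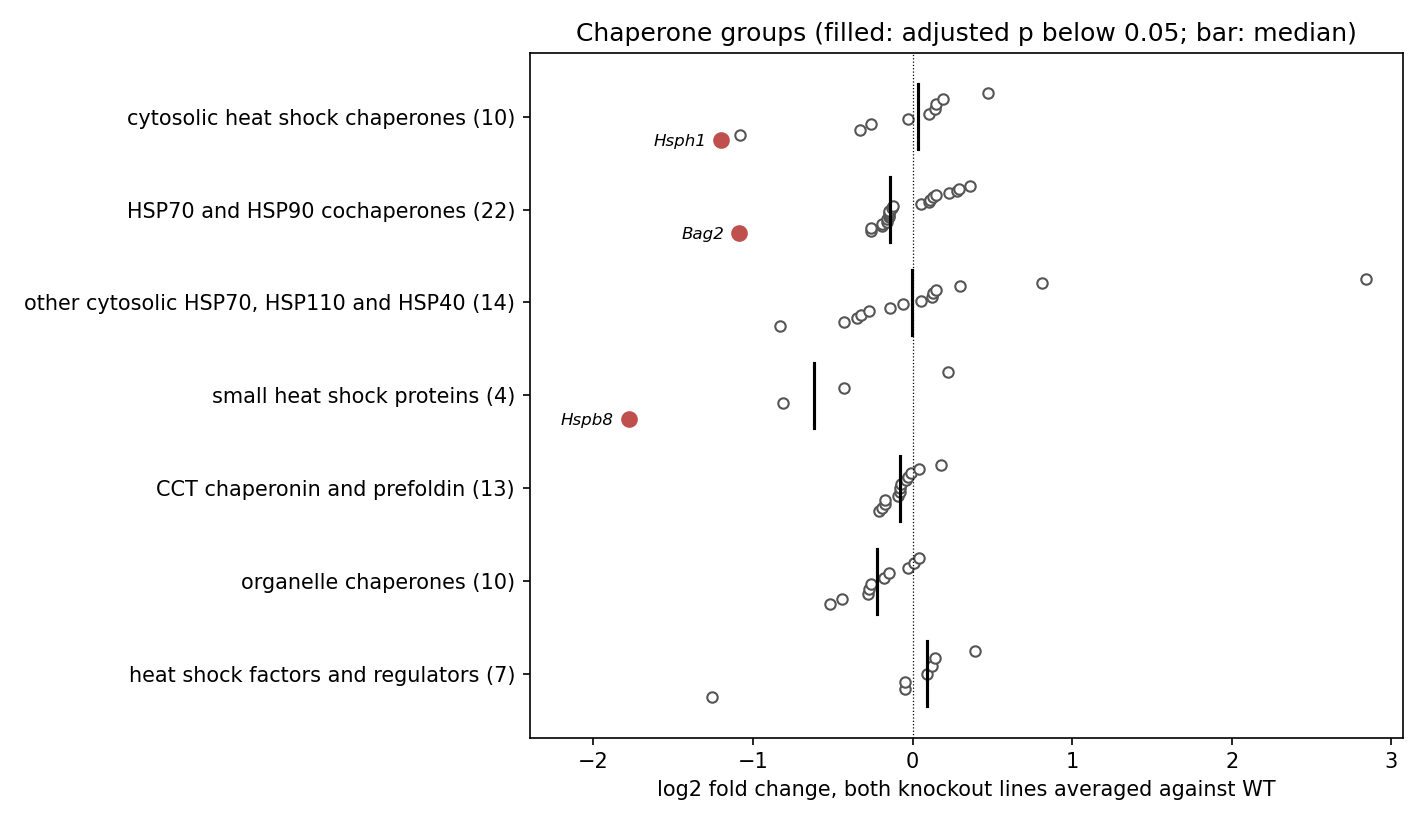
Log2 fold change with both knockout lines averaged against WT for the tested genes of 7 chaperone groups. Filled points are Hsph1, Bag2 and Hspb8, all lower, open points did not pass, and bars give the median of each group.

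The 5 other genes whose level followed Hsph1 most closely over the 8 libraries were Aurkaip1 (r = 0.979), C1qc (0.978), Aif1 (0.968), Creld2 (0.963) and Cope (0.95). These are Pearson correlations of log2 CPM over libraries that include the group difference, given as a description. C1qc and Aif1, both known from macrophages, were low throughout (0.453 and 1.64 CPM in Mx1-Cre, 0.103 and 0.497 CPM in Vav-Cre, 1.12 and 2.88 CPM in WT libraries on average). Creld2, which encodes a protein of the endoplasmic reticulum, averaged 35.7 CPM in Mx1-Cre, 23.2 CPM in Vav-Cre and 52.6 CPM in WT libraries. The mean standardised profile of the 10 members was followed most closely by Snrnp40 (r = 0.986), Hmgn5 (0.982), Jmjd4 (0.981), Rbmxl1 (0.968) and Mrps22 (0.967).

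Markers of other cells differed between the same groups. Of 14 myeloid and granule genes, 3 fell with both lines averaged, Mpo (-1.89 ± 0.21, adjusted p = 0.00339), Csf3r and Elane. Their summed level was 577 to 1002 CPM in Mx1-Cre, 475 to 907 CPM in Vav-Cre and 1308 to 1886 CPM in WT libraries, with no gene at 0 throughout. Of 5 tested mast cell and basophil genes 2 rose, Cpa3 and Fcer1a. Folds were positive for 3 of the 5 and negative for 2. An unadjusted p below 0.05 was reached by 3 with a positive and 1 with a negative fold, against 16.5% of all tested genes. That list summed to 24.8 to 41.2 CPM in Mx1-Cre, 16.5 to 241 CPM in Vav-Cre and 10.4 to 14.3 CPM in WT libraries. Fcer1a had 2 CPM in 1 Vav-Cre library and 208 CPM in the other, most of the sum of 241 CPM. Of 7 tested stromal and endothelial genes 1 fell, Bgn (-1.57 ± 0.17, adjusted p = 0.00266), with sums of 57.1 to 80.9 CPM in Mx1-Cre, 96.4 to 99.7 CPM in Vav-Cre and 127 to 160.4 CPM in WT libraries.

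In the other marker lists edgeR called 0 genes with both lines averaged. The B, T and NK cell genes summed to 152 to 176 CPM in Mx1-Cre, 129 to 133 CPM in Vav-Cre and 191 to 233 CPM in WT libraries, with 4 of 7 tested genes at an unadjusted p below 0.05 (16.5% of all tested genes), 0 called by DESeq2 and 1 by limma-voom. The T cell genes Cd3e and Cd8a had at most 3 counts in any library. Erythroid genes summed to 119 to 255 CPM in Mx1-Cre, 19.6 to 49 CPM in Vav-Cre and 83.1 to 166 CPM in WT libraries. Of 6 tested, 1 had such a p, DESeq2 and limma-voom each called 1, and the globin genes Hba-a1 and Hbb-b1 were listed at 0 in all libraries. Megakaryocyte and platelet genes summed to 508 to 752 CPM in Mx1-Cre, 321 to 596 CPM in Vav-Cre and 679.7 to 875 CPM in WT libraries. Of 6 tested, 2 had such a p, 1 was called by DESeq2 and 2 by limma-voom, and Gp6 was at 0 throughout. Cycling genes summed to 3680.2 to 4311 CPM in Mx1-Cre, 1853 to 3489 CPM in Vav-Cre and 2737 to 2805 CPM in WT libraries, with 0 of 12 at such a p with both lines averaged and 7 in the Mx1-Cre libraries, where DESeq2 called 3 and limma-voom 8. Cd48 and the other 3 genes of progenitor entry summed to 466 to 823 CPM in Mx1-Cre, 451 to 599.5 CPM in Vav-Cre and 469 to 620.3 CPM in WT libraries, with 0 at such a p and 0 called by the other tools. The part of these differences in the levels of Hsph1, Hspa4, Bag2 and Hspb8 was not tested. In sorted bulk cells, fewer cells of a type and less RNA per cell cannot be told apart.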

How the data were processed

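RNA-seq of 8 mouse libraries was deposited as 1 table of raw counts per gene and 1 table of CPM values. The build mm9 and the tools TopHat, HTSeq, SAMtools and edgeR, without versions, are named per the submitters' processing notes. SMARTer Ultra Low Input cDNA and NEBNext library reagents are named per the labels' protocols. For the annotation, the strand setting and reads with several matches the entry is: not given in the sources used here. The deposited counts gave all results. The deposited CPM table holds 12457 genes, 8 of the 10 members among them, and was used only as a check of the counts.

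Genes were kept by edgeR's filter (at least 10 counts in enough libraries and 15 in total), which left 14086 of 23358. Libraries were scaled by TMM, and group means were fitted over all 8 libraries with edgeR 4.0.16 (R 4.3.3), its quasi-likelihood test and Benjamini-Hochberg adjustment over all tested genes, with a threshold of 0.05. Contrasts were both knockout lines averaged against WT, each line against WT, and Vav-Cre minus Mx1-Cre. Ratios of members were compared by two-sided exact permutation tests. Count floors use 3 counts and intervals 95% confidence. Total counts of 28689765 to 33202926 limit precision mainly for Hspa1a, Hspa1b and Hspb8. For Hspa1a and Hspa1b the scatter among libraries adds to this.

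Alternatives were DESeq2 1.42.0, limma 3.58.1 voom with quality weights, other scalings, no filter, only the groups compared, a replicate block, Hspa1a and Hspa1b summed, each library left out and, chosen after seeing the data, WT 1 and Mx1-Cre 2 both left out. All members are named. From each other list the rule names up to 4 called genes or, where none was called, the 2 with the lowest p. The members and lists were chosen with earlier results of these data known. The fits were tested on simulated data.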

Additional observations from a re-analysis of the deposited data

How the results depend on the processing

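With both lines averaged, in Mx1-Cre, in Vav-Cre and between the lines, edgeR called 373, 351, 72 and 24 genes. DESeq2 called 953, 1042, 599 and 468, and limma-voom called 992 and 1815 in the first 2 and 10 between the lines. With no filter, 174 genes were called in Vav-Cre and 81 between the lines. Fits to only the groups compared called 575 in Mx1-Cre, 111 in Vav-Cre and 3 between the lines. Leaving out each library in turn gave 22 to 502, 58 to 565, 5 to 196 and 3 to 412 calls. Without WT 1 and Mx1-Cre 2, an alternative chosen after seeing the data, 169, 131 and 26 genes were called in the first 3 comparisons.

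Members called were 1, 0, 1 and 0 in the same comparisons. DESeq2 called 1 between the lines, limma-voom called 2 in Mx1-Cre, and 1 was called between the lines without WT 1 and Mx1-Cre 2, whose low Hsph1 levels were part of the reason to leave them out. With 1 library left out, the count was 0 to 1 with both lines averaged and in Vav-Cre, and 0 in the other 2 comparisons. A Vav-Cre group of 1 library is then assumed to vary like the other groups.

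Whether same-numbered libraries share a batch or a pairing is not known from the replicate numbers. Deviations of same-numbered libraries correlated at r = -0.071 to 0.129, and WT 1 correlated best with Mx1-Cre 2. Deviations from the means of so few libraries constrain each other, so these values cannot exclude a pairing. With the numbers as a block, 218 genes were called with both lines averaged, 20 in Vav-Cre and 9 between the lines, and 0 members in Vav-Cre (Hsph1 -1.55, adjusted p = 0.0749). The block also ended the calls of Bag2 in Vav-Cre (-1.09, adjusted p = 0.0959) and of Hspb8 with both lines averaged (-1.79, adjusted p = 0.0754).

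Directions changed for folds near 0 or with few counts, and the cause was not tested. Hsp90aa1 in Vav-Cre had -0.01 with limma-voom and -0.11 without WT 1 and Mx1-Cre 2. Hspa1a had 1.30 in Vav-Cre with the block and -0.14 with both lines averaged without those 2 libraries. With 1 library left out, the ranges that crossed 0 were -0.11 to 0.21 (Hsp90aa1, Vav-Cre), -2.30 to 2.04 (Hspa1a, Vav-Cre), -0.43 to 3.37 (Hspa1a, averaged), -0.15 to 0.09 (Dnajb1, averaged), -0.04 to 0.36 (Dnajb1, Mx1-Cre), -0.14 to 0.29 (Hspa8, averaged), -0.62 to 0.23 (Hspa8, Vav-Cre), -0.30 to 0.02 (Hspa4, between lines) and -0.25 to 0.01 (Bag2, between lines). For the log2 ratios they were -0.09 to 0.22 (Hsp90aa1 to Hsp90ab1) and -1.63 to 0.15 (Hspa1 genes to Hspa8), while Hsph1 to Hspa4 stayed at -1.69 to -1.33, in tests too small to reach 0.05 after adjustment.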
